A study of Mus musculus with 6 samples.

Results

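The Wnt ligands, their receptors and the genes that modulate them were examined in RNA of mouse lung endothelial cells (ECs) after pneumonectomy of one side (PNX), an operation that takes out 1 lung and is followed by growth of the other. The 59 genes were chosen by symbol alone, with no measured value used: the Wnt and Frizzled (Fzd) families, the Lrp5 and Lrp6 co-receptors, the secreted inhibitors Sfrp1, Sfrp2, Sfrp4, Sfrp5, Frzb, Wif1, Notum and Dkk1 to Dkk4, the R-spondins and their Lgr receptors, Znrf3, Rnf43, Porcn, Axin1, Axin2, Ctnnb1, Lef1 and the Tcf7 genes. They are 59 of the 24063 gene symbols in the deposited files. ECs were isolated with anti-CD31 magnetic beads from lungs of male C57BL6 mice, as 3 libraries from sham-operated mice and 3 libraries from mice at day 7 after PNX, each pooled from 2 mice. No library carried a mutant allele, a transgene or a drug, and the sham mice were the only controls. The sample labels give an age of 8 weeks for both groups and the study's methods an older range.

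Wnt ligands are secreted glycoproteins that carry a lipid added by the acyltransferase Porcn. In the canonical branch a ligand joins a Frizzled receptor to Lrp5 or Lrp6, β-catenin (Ctnnb1) escapes the Axin complex that marks it for degradation, and Lef1 and the Tcf proteins then switch on target genes, Axin2 among them. Other ligands, of which Wnt5a is the best known, act mostly without β-catenin, and in ECs Fzd4 is the receptor that pairs with Lrp5 and norrin in the growth of retinal vessels.

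At day 7 after PNX the mean levels of 2 ligands, Wnt4 and Wnt5a, were more than 2-fold those in sham. So was that of the secreted inhibitor Sfrp2, whose groups overlapped, since sham replicate 3 lay above PNX replicate 1. Fzd4, the most abundant Frizzled transcript, Lef1, Wnt2b and Porcn were lower in every PNX library than in any sham library, Lef1 only just. This held for 10 of the 50 members tested, beside 18.0% of all genes tested. Axin2 and Ctnnb1 differed little between the groups. None of the 50 family members with enough reads to test met the study's limits (adjusted p below 0.01, log2 fold change above 1 in size) in edgeR's quasi-likelihood test without a term for the deposit, and neither did any of the 16598 genes tested (0.0%). With the deposit as a replicate block, 3 of 50 members passed (6.0%), all higher after PNX, beside 5.12% of all genes tested, or 3.89% as higher and 1.23% as lower. The share of members called was thus near that of all genes.

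The total count of a library lay between 29526989 and 81282871, lowest in replicate 3 of each group. Replicates 1 and 2 of each group, which the labels mark as re-used from an earlier record (the earlier deposit), differed from each other by a chi-square per degree of freedom of 1.75 in sham and 1.57 after PNX, where 1 is counting error alone, and from replicate 3 (the later deposit) by 67.9 to 86.4. Their counts were therefore added up, so that each group has n = 2 samples, a design in which a two-sided exact permutation test cannot go below p = 0.333. Nothing in the labels says how the mice of replicates 1 and 2 were related, so the spread they show may be technical. Levels within a gene are given as CPM, its count as a share of the library size scaled by TMM, and levels of different genes as deposited TPM, which allows for transcript length. In bulk RNA, fewer cells of a type and less RNA per cell cannot be told apart.

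All 12 endothelial markers examined were detected, at a summed level of 9735 to 12110 CPM in sham and 8994 to 10020 CPM after PNX. Markers of other lung cells were detected as well, none of them at 0 in every library. The summed level of 10 fibroblast markers was 3683 to 3786 CPM in sham and 6559 to 6624 CPM after PNX, with 7 higher and 1 lower at an adjusted p under 0.05 in edgeR's blocked fit. That of 8 alveolar type 2 markers was 5461 to 5858 and 2097 to 3496 CPM, with all 8 lower by the same rule.

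The levels of the family differed widely. Ctnnb1 stood highest, at a mean of 413 TPM over the 6 libraries for its transcript with the most counts, followed by Fzd4 at 77.8 TPM, Lrp5 at 72.7 TPM, Tcf7 at 42.8 TPM and Dkk3 at 41.7 TPM. Among the receptors Fzd4 was followed by Fzd6 at 27.1 TPM, Fzd1 at 18.9 TPM and Fzd7 at 11.4 TPM. The ligands were lower, with Wnt2 at a mean of 12 TPM over the 6 libraries, Wnt4 at 8.43 TPM and Wnt5a at 5.49 TPM. Transcripts of a gene had nearly the same counts in these files, and whether a shared read was counted on each of them or divided among them is not stated, so that a sum over transcripts may repeat reads. Tcf7l2, with 8 transcripts, has 77.0 TPM when summed and 9.54 TPM for its highest transcript. The ligand Wnt11, with 4 transcripts, has 16.9 TPM when summed and 4.03 TPM for its highest transcript. Fzd4 and Lrp5 differed by less than the range of either over the libraries (57.5 to 101.5 TPM for Fzd4, 60.7 to 89.6 TPM for Lrp5), and their order was not distinguished. No count of Wnt1 or Dkk4 was found in any library, and 3 counts over the total of 356528422 would be 0.00841 CPM. With those, 9 members had too few counts to be tested (Dkk1, Dkk4, Sfrp5, Wnt1, Wnt3, Wnt8a, Wnt8b, Wnt10a and Wnt16).

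**Figure D1:**
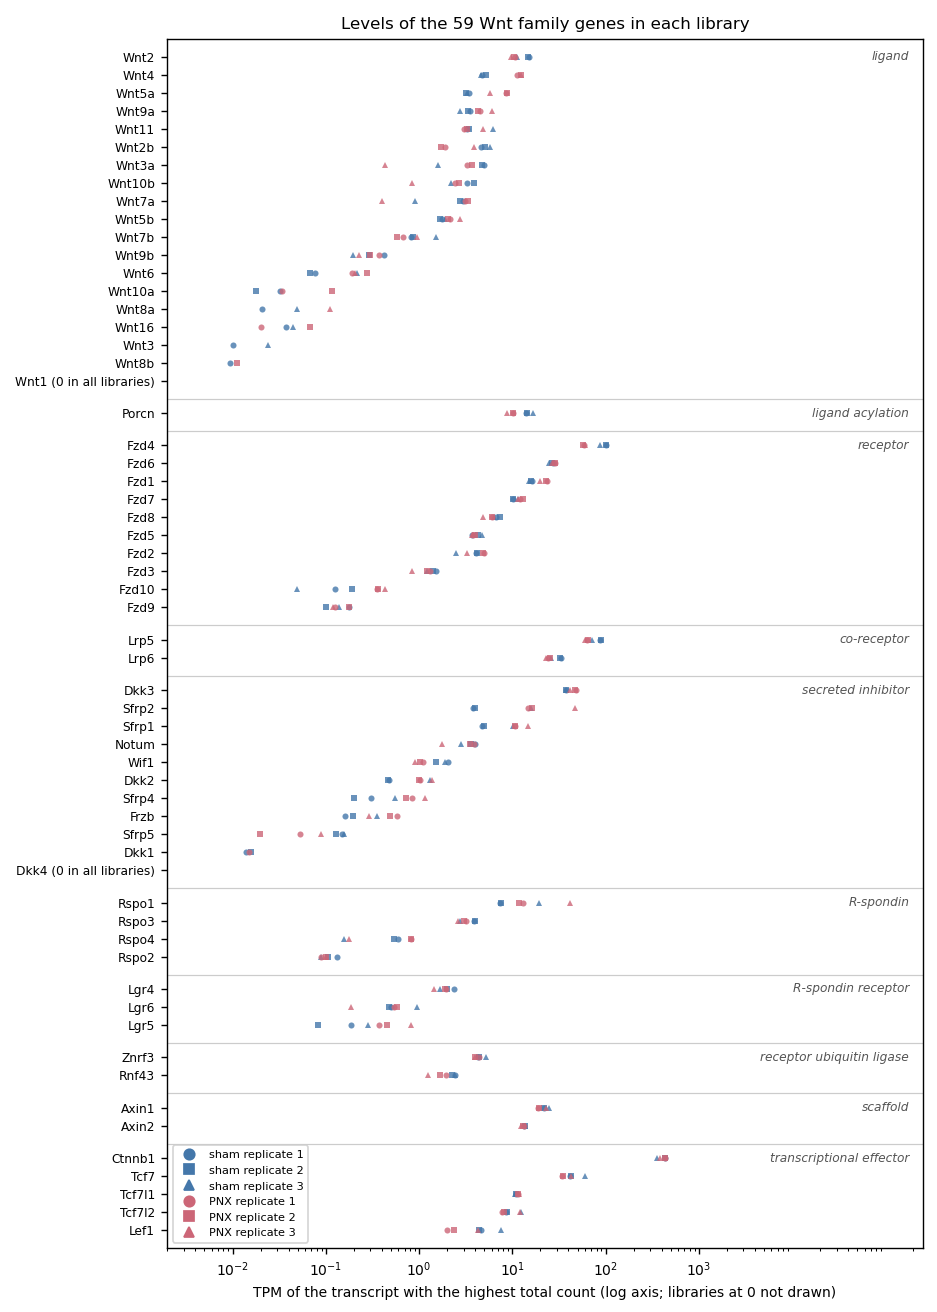
Deposited TPM of each member's transcript with the highest total count (log axis), by role, with 1 point per library (blue, sham; red, PNX; circles, squares and triangles, replicates 1, 2 and 3). Ctnnb1 lies near 413 TPM and most ligands lie at or under 12 TPM, and the triangles of replicate 3 stand apart for Wnt3a, Wnt7a and Sfrp2.

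To show the sequence in front of these genes, 100 bases are printed for 4 members described below, chosen after their values were seen and with an entry in the RefSeq promoter table (GRCm38.p6). Where the promoter table and GENCODE place the start differently, the stretch ends just before the more upstream of them. That is the GENCODE start for Wnt4 and Fzd4 and a RefSeq start for Lef1, and both agree for Sfrp2. RefSeq gene coordinates begin Sfrp2 further upstream, at 83765750, so that its stretch lies inside that gene span. The stretches are Wnt4 (chr4:137277389-137277488), Sfrp2 (chr3:83766221-83766320), Fzd4 (chr7:89404255-89404354) and Lef1 (chr3:131110197-131110296). All read along the plus strand, 5′ to 3′, and capitals mark a match to the E-box CANNTG, the motif of basic helix-loop-helix factors such as Twist1.
Wnt4: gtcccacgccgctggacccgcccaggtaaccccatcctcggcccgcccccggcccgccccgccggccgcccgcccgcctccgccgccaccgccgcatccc
Sfrp2: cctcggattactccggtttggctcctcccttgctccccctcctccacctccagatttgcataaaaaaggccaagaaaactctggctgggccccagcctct
Fzd4: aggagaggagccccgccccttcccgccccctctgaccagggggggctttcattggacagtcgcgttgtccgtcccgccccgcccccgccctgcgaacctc
Lef1: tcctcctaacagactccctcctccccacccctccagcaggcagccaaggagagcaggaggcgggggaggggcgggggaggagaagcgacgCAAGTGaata

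The stretch before Wnt4 was 85.0% G or C, that before Fzd4 73.0%, that before Lef1 66.0% and that before Sfrp2 57.0%. Of the printed stretches that of Lef1 held an E-box, CAAGTG, and the other 3 held none, which depends on the start chosen, since Wnt4 has 1 E-box in the window before its RefSeq start, at position -15, downstream of the stretch printed. None of the 4 stretches held the TCF/LEF motif (searched on both strands as CTTTGAA, the variant CTTTGAT, the variant CTTTGTA and the variant CTTTGTT). Of the 59 members 38 had an entry, with 48 windows of 250 bases before the start. A TCF/LEF match lay in 6 of the 48 windows (12.5%), beside 14.8% of 32841 promoters of the same length. The E-box lay in 27 windows, beside 66.2% of all promoters, and a narrower set (CATATG, the variant CATCTG and the variant CAGATG), each of which is also an E-box, in 3 windows (6.25%) beside 17.3%. A match of letters is a description of the window and not a binding site.

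Of the 19 ligands, 13 were tested. With the replicate block, 3 had a higher and 1 a lower level at an adjusted p under 0.05 (Wnt4, Wnt5a and Wnt9a against Wnt2b), a rule that 11.5% of all genes passed as higher and 10.1% as lower. The median log2 fold change of the 13 ligands was -0.18 in that fit, beside -0.01 for all genes.

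Wnt4, a ligand of kidney and female reproductive tract development, had the lowest adjusted p of the family in the fit without the block. Its level was 7.21, 7.92 and 6.96 CPM in sham replicates 1, 2 and 3 and 17.3, 19.0 and 18.8 CPM in PNX replicates 1, 2 and 3. Every PNX library lay more than 2-fold above every sham library, and the deposits gave like values. The mean was 7.27 ± 0.416 CPM for sham and 18.5 ± 0.471 CPM for PNX (SD, n = 2 samples each). On the log2 scale PNX exceeded sham by 1.35 (SE, the standard error, 0.16), and edgeR gave an adjusted p of 0.0744 without the block and 2.83e-04 with it. It passed both thresholds in DESeq2 (adjusted p = 4.45e-07). With each of the 6 libraries a replicate of its own it passed in edgeR (adjusted p = 0.00128), a fit that counts the near-duplicate replicates 1 and 2 as separate samples. Over all alternatives tried the adjusted p lay between 6.06e-11 and 0.153 and the log2 fold change between 1.29 and 1.38. The lowest adjusted p came from replicates 1 and 2 alone, whose spread may be technical. Wnt4 lies on the plus strand of chromosome 4 (137277489 to 137299726, GRCm38), and no other annotated exon overlaps it.

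Wnt5a, the ligand of the branch that acts mostly without β-catenin, stood at 11.4, 10.7 and 10.9 CPM in the sham libraries and at 28.9, 29.6 and 19.2 CPM in the PNX libraries, in the order of the replicates. The PNX libraries all lay above the sham libraries, with the later deposit less far above. The PNX level was 2.63 times sham in the earlier deposit and 1.76 times in the later one. The means were 11.02 ± 0.174 and 24.3 ± 7.16 CPM (SD, n = 2 samples each), and the log2 fold change was 1.14 (SE 0.25, edgeR adjusted p = 0.172). With the block it passed (log2 fold change 1.14, SE 0.15, edgeR adjusted p = 0.00221), but not when PNX replicate 1 was left out of that fit (edgeR adjusted p = 0.0176). The range of its adjusted p over the alternatives was 3.71e-13 to 0.306. Its lower end came from replicates 1 and 2 alone, whose spread may be technical. The gene (chromosome 14, 28504750 to 28527448, plus strand) shares exon sequence with Gm2670 on the opposite strand, and since use of strand in the counting is not stated, its count may include reads of that gene. The summed fibroblast markers were 1.78 and 1.75 times sham in the earlier and later deposit. These ratios lean on Npnt, which made up most of the sham sum, and the median blocked log2 fold change of the 10 markers was 1.55. The part of the fibroblast markers in the differences in Wnt4, Wnt5a and Sfrp1 was not tested.

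**Figure D2:**
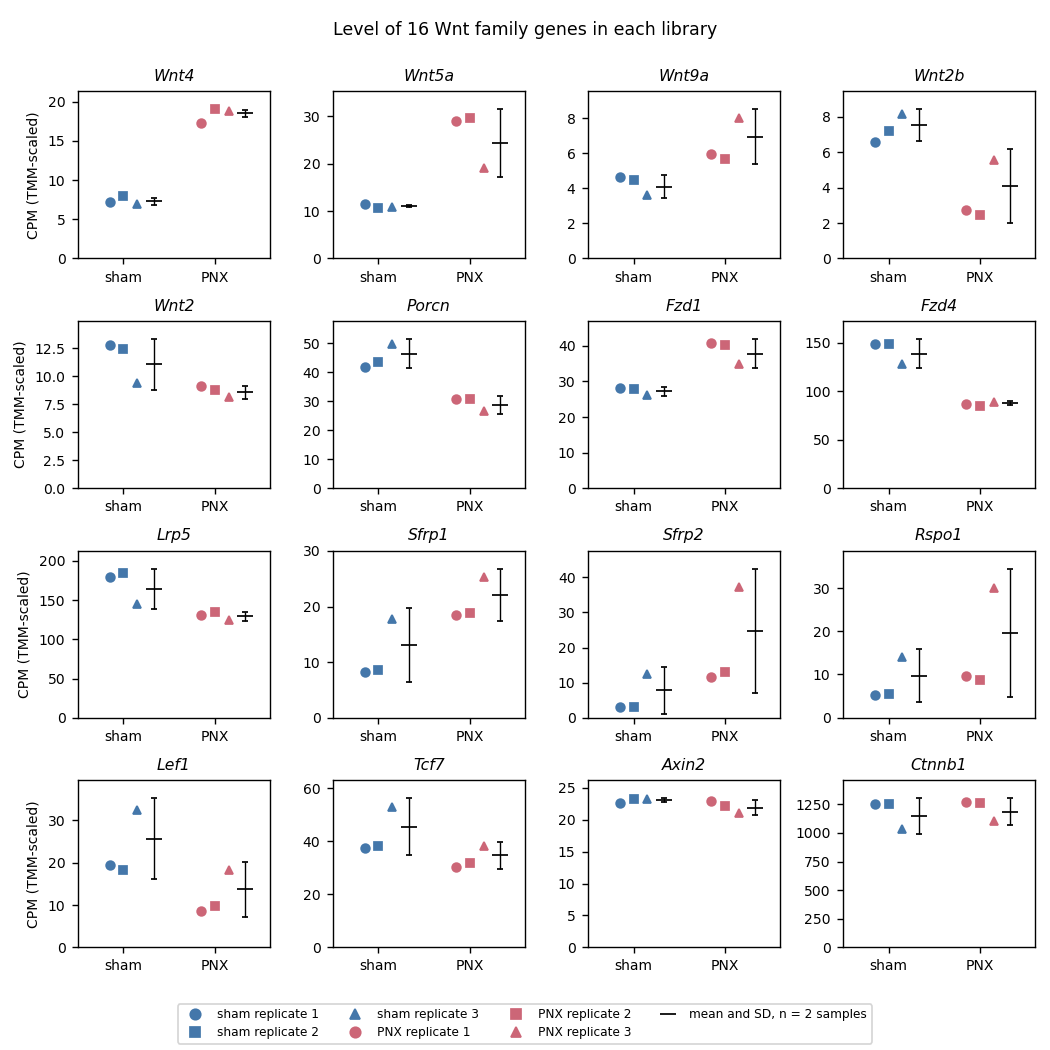
TMM-scaled CPM of 16 members in each library (circles, squares and triangles, replicates 1, 2 and 3), with the mean and SD of n = 2 samples per group, the first being replicates 1 and 2 summed. Wnt4 has means of 7.27 CPM in sham and 18.5 CPM after PNX with little spread, Fzd4 has means of 138.7 and 87.6 CPM, and for Sfrp2 and Rspo1 the spread between deposits is as wide as the difference between groups.

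Wnt9a had 4.64, 4.47 and 3.64 CPM in sham and 5.97, 5.70 and 8.05 CPM after PNX, replicates 1, 2 and 3 in order. The groups did not overlap, and the difference was larger in the later deposit (2.21 times) than in the earlier one (1.28 times). Its log2 fold change was 0.75 (SE 0.27, edgeR adjusted p = 0.360) and 0.70 with the block (edgeR adjusted p = 0.0499). It was not under 0.05 in the blocked fit with size factors from DESeq2 (0.0711), the upper quartile (0.0666) or library size alone (0.0648), nor in DESeq2 itself with the block (adjusted p = 0.0585). Wnt5b, a close relative of Wnt5a, measured 4.98, 4.79 and 5.38 CPM in sham and 6.10, 5.73 and 7.71 CPM after PNX. These did not overlap either, yet the adjusted p missed 0.05 in edgeR without and with the block (log2 fold change 0.41, SE 0.23, edgeR adjusted p = 0.573 and 0.106).

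Wnt2b and Wnt2, the ligands that specify the lung from the foregut, were lower after PNX. Wnt2b was at 6.56, 7.21 and 8.14 CPM in the sham libraries and at 2.73, 2.48 and 5.58 CPM in the PNX libraries. All PNX values lay below all sham values, at 0.381 of sham in the earlier deposit and 0.686 in the later. The log2 fold change was -0.89 (SE 0.41, edgeR adjusted p = 0.481), and -1.003 with the block (SE 0.22, edgeR adjusted p = 0.0173), which missed the threshold of 0.01. By the highest transcript of each gene Wnt2 was the most abundant ligand per length in sham, whereas after PNX its TPM (9.69 to 10.8) lay below that of Wnt4 (11.3 to 12.4). Wnt2 was at 12.8, 12.5 and 9.43 CPM in sham against 9.14, 8.76 and 8.15 CPM after PNX. The lowest sham library lay just above the highest PNX library, and neither fit called the difference (log2 fold change -0.37, SE 0.22, edgeR adjusted p = 0.591 and 0.0812).

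In a further 3 ligands the later deposit was lower than the earlier one in both groups. Wnt3a had 5.49, 5.17 and 1.76 CPM in sham replicates 1, 2 and 3 and 3.61, 4.12 and 0.473 CPM in the same PNX replicates. Wnt7a had 3.71, 3.52 and 1.15 CPM in sham and 3.96, 4.25 and 0.507 CPM after PNX, so that the later deposit was 0.316 of the earlier one in sham and 0.124 after PNX. Wnt10b had 2.91, 3.41 and 1.97 CPM in sham and 2.16, 2.39 and 0.744 CPM after PNX. In all 3 genes replicate 3 was the lowest of its group. Within deposits PNX was below sham in Wnt3a (0.721 and 0.269 times) and Wnt10b (0.721 and 0.378 times), with blocked log2 fold changes of -0.85 (SE 0.30, edgeR adjusted p = 0.0835) and -0.78 (SE 0.26, edgeR adjusted p = 0.0755), neither of which passed. The summed level of 8 alveolar type 1 markers was 7019, 7033 and 3295 CPM in sham and 5053, 5111 and 1827 CPM after PNX, lowest in the same libraries. At an adjusted p under 0.05 in edgeR's blocked fit 6 of these markers were lower and 1, Pdpn, was higher. Their part was not tested. Wnt7a was the only one of the 40 members with a mean count of at least 50 whose direction differed between deposits, at 1.13 times sham in the earlier and 0.443 in the later one. These 3 genes and the other members described without a rule (Sfrp2, Rspo1, Tcf7, Lgr5, Sfrp4 and Tcf7l2) were chosen after their values were seen.

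Porcn, the enzyme that acylates all Wnt ligands, was at 41.9, 43.6 and 49.9 CPM in the sham libraries and at 30.9, 30.6 and 26.4 CPM after PNX. No PNX library reached the lowest sham library. The means were 46.4 ± 5.05 and 28.7 ± 3.09 CPM (SD, n = 2 samples each), and the log2 fold change was -0.69 (SE 0.16, edgeR adjusted p = 0.196) or -0.68 with the block (SE 0.12, edgeR adjusted p = 0.00728), a change smaller than the fold threshold. Its 4 transcripts had almost equal counts.

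Among the 10 Frizzled receptors, Fzd4 was lower and Fzd1 higher in the PNX libraries by that rule (adjusted p under 0.05, blocked), and 8 did not pass. Of all genes tested, 11.5% passed it as higher and 10.1% as lower. Fzd4 stood at 148.8, 149.1 and 127.7 CPM in sham replicates 1, 2 and 3 and at 86.5, 84.9 and 88.9 CPM in the PNX libraries. The groups were far apart and the PNX libraries nearly equal. The mean was 138.7 ± 15.1 CPM for sham and 87.6 ± 2.12 CPM for PNX (SD, n = 2 samples each), a log2 fold change of -0.66 (SE 0.14, edgeR adjusted p = 0.173). With the block the value was -0.66 (SE 0.09, edgeR adjusted p = 0.00336), and over the alternatives it lay between -0.77 and -0.65 with adjusted p from 2.50e-13 to 0.563. The lowest of these adjusted p came from replicates 1 and 2 alone, whose spread may be technical. PNX was 0.576 of sham in the earlier deposit and 0.696 in the later, while the summed endothelial markers were 0.828 and 0.924. Of the 12 endothelial markers, 2 (Tek and Flt1) were lower and 0 higher at an adjusted p under 0.05 in edgeR's blocked fit. Whether the marker level has a part in the difference in Fzd4 was not tested. Fzd4 (chromosome 7, 89404355 to 89413134) has no overlapping exon of another gene in the annotation.

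Fzd1 measured 28.2, 27.9 and 26.3 CPM in sham and 40.96, 40.3 and 34.9 CPM after PNX. It did not overlap between groups, in the direction opposite to Fzd4 (log2 fold change 0.48, SE 0.15, edgeR adjusted p = 0.305, and 0.48 with edgeR adjusted p = 0.00959 with the block). In TPM of the highest transcript, Fzd4 made up 59.2, 59.0 and 56.8% of the summed Frizzled level in sham and 42.1, 41.5 and 45.9% after PNX. These shares did not overlap, and no test was run on them. They depend on taking 1 transcript per gene, since Fzd5 and Fzd6 have 2 transcripts each and Fzd4 has 1. Summed over transcripts, Fzd6 was at 54.5, 53.9 and 49.7 TPM in sham and 57.3, 57.0 and 53.0 TPM after PNX. Fzd4 was at 101.2, 101.5 and 87.3 TPM in sham and 58.6, 57.5 and 60.6 TPM after PNX.

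Fzd7 and Fzd8 differed less. Fzd7 was at 19.7, 19.3 and 21.9 CPM in sham against 23.1, 25.3 and 22.2 CPM after PNX, with the libraries of the later deposit almost equal (1.01 times). Fzd8 was at 8.84, 9.79 and 8.49 CPM and at 8.19, 8.03 and 6.49 CPM. Both were without overlap, and in neither was the adjusted p under 0.05 in either fit (edgeR adjusted p = 0.289 for Fzd7 and 0.173 for Fzd8 with the block). Fzd6, the second most abundant Frizzled per length, differed by a log2 fold change of 0.09 (SE 0.13).

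Of the co-receptors, Lrp5 was lower at an adjusted p under 0.05 in edgeR's blocked fit and Lrp6 did not pass. Lrp5 had 179.6, 184.7 and 145.4 CPM in sham and 131.4, 134.3 and 124.8 CPM after PNX. Lrp6 had 124.5, 120.0 and 95.8 CPM in sham and 90.3, 94.6 and 85.7 CPM after PNX. In each gene every PNX library lay below every sham library, with the gap between sham replicate 3 and the PNX libraries the narrowest and very small for Lrp6. The log2 fold change was -0.35 for Lrp5 (SE 0.17, edgeR adjusted p = 0.500, and 0.0388 with the block, where DESeq2 with the block gave 0.0535) and -0.29 for Lrp6 (SE 0.17, edgeR adjusted p = 0.586, and 0.0629 with the block).

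**Figure D3:**
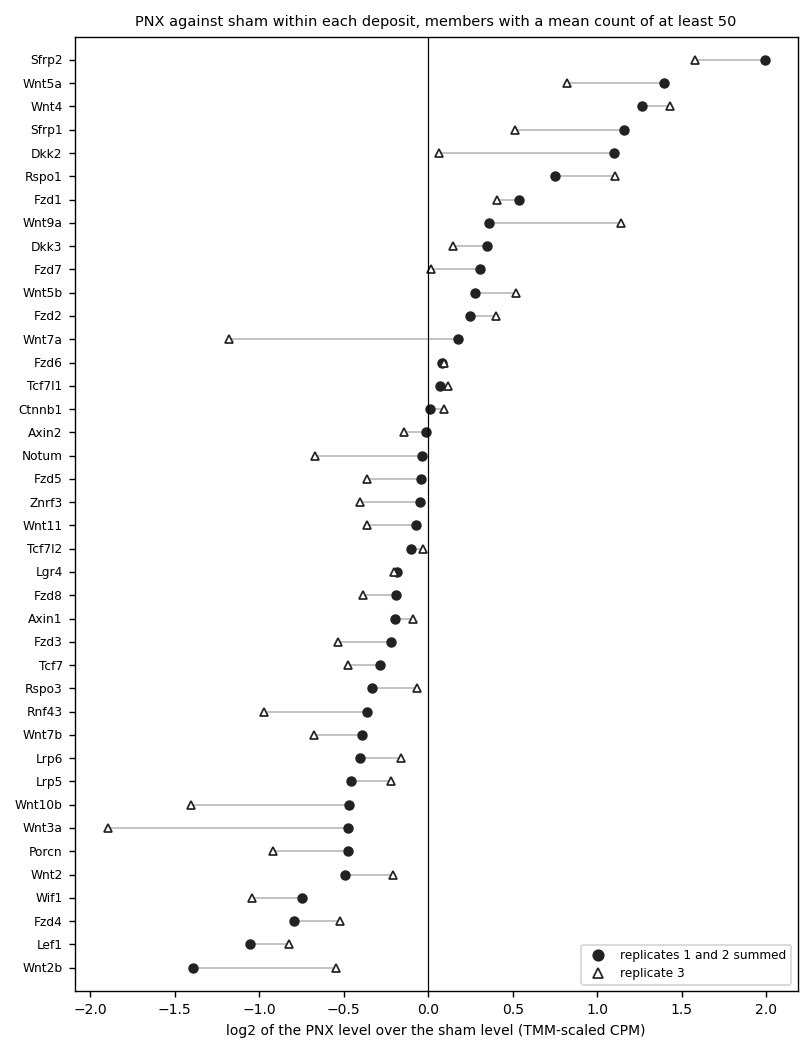
Log2 of the PNX level over the sham level (TMM-scaled CPM) for the 40 members with a mean count of at least 50, computed within the earlier deposit (filled circles, replicates 1 and 2 summed) and within the later one (triangles, replicate 3). In 39 members both lie on the same side of 0, and Wnt7a is the exception.

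Of the 11 secreted inhibitors, which bind Wnt ligands or the co-receptors or, in the case of Notum, remove the lipid, 8 were tested. Sfrp1, Sfrp2 and Sfrp4 were higher at an adjusted p under 0.05 in the blocked fit and none was lower, where 11.5% of all genes were higher and 10.1% lower. The median log2 fold change of the 8 was 0.75 with the block, beside -0.01 over all genes. Sfrp2 measured 3.02, 3.18 and 12.5 CPM in sham and 11.7, 13.0 and 37.3 CPM after PNX. The groups overlapped, since sham replicate 3 lay between PNX replicates 1 and 2, and each PNX library was about 3 or more times the sham library of its deposit. The ratio of PNX to sham was 3.97 in the earlier deposit and 2.99 in the later. Without the block the log2 fold change was 1.69 (SE 0.84, edgeR adjusted p = 0.522), and with it 1.79 (SE 0.13, edgeR adjusted p = 1.37e-04), the lowest blocked adjusted p in the family. Sfrp2 (chromosome 3, 83766321 to 83774316, plus strand) shares exon sequence with Gm26771 on the opposite strand.

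Sfrp1 was also higher in the later deposit within each group, at 8.21, 8.56 and 17.8 CPM in sham against 18.5, 18.9 and 25.4 CPM after PNX. The lowest PNX library lay just above the highest sham library. Its log2 fold change was 0.76 (SE 0.40, edgeR adjusted p = 0.551) and 0.85 with the block (SE 0.16, edgeR adjusted p = 0.00917). Dkk3, the most abundant gene of this class and one without a settled role as a Wnt inhibitor, had 50.7, 50.3 and 50.1 CPM in sham and 64.7, 63.9 and 55.4 CPM after PNX (log2 fold change 0.25, SE 0.14, edgeR adjusted p = 0.575, and 0.0877 with the block). Wif1 went the other way, at 1.84, 1.37 and 1.68 CPM in sham against 0.999, 0.923 and 0.812 CPM after PNX, also without overlap (log2 fold change -0.88, SE 0.31, edgeR adjusted p = 0.353, and 0.0505 with the block). The summed alveolar type 2 markers were also lower, at 0.638 of sham in the earlier deposit and 0.358 in the later; their part was not tested. Sfrp4 stayed under 1 CPM in every library and had a mean count of 23.7.

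R-spondins bind Lgr4, Lgr5 and Lgr6 and hold back the ubiquitin ligases Znrf3 and Rnf43, which remove Frizzled receptors from the surface. Rspo1 had 5.34, 5.56 and 14.0 CPM in sham and 9.57, 8.71 and 30.1 CPM after PNX, so that sham replicate 3 exceeded PNX replicates 1 and 2. Within deposits PNX was 1.68 and 2.15 times sham, and the log2 fold change was 1.02 (SE 0.72, edgeR adjusted p = 0.665) or 0.92 with the block (SE 0.12, edgeR adjusted p = 0.00247). The summed level of 7 mesothelial markers was 241.9, 244 and 423 CPM in sham and 413, 425.5 and 914 CPM after PNX. It was highest in replicate 3 of each group, as Rspo1 and Sfrp2 were. Within the earlier and later deposit the sum was 1.73 and 2.16 times sham, near the ratios of Rspo1, whereas Sfrp2 had 3.97 and 2.99. The part of these markers was not tested. Rspo3, a gene of lung ECs, had a log2 fold change of -0.22 (SE 0.30). Rnf43 was at 4.16, 3.86 and 4.17 CPM in sham against 3.34, 2.87 and 2.13 CPM after PNX, with no overlap (log2 fold change -0.62, SE 0.28, edgeR adjusted p = 0.480, and 0.0742 with the block). Znrf3 differed by -0.23 (SE 0.16) on the same scale. Lgr5 was at most 1.56 CPM in any library, higher in the 3 PNX libraries than in the sham libraries (log2 fold change 1.57, SE 0.31, edgeR adjusted p = 0.0120 with the block and 0.379 without it), on a mean count of 35.5.

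The effectors inside the cell did not move together. Ctnnb1 was at 1254, 1254 and 1032 CPM in sham against 1267, 1259 and 1101 CPM after PNX. Axin2, a scaffold and a direct target of β-catenin, was at 22.6, 23.2 and 23.3 CPM in sham against 23.0, 22.2 and 21.0 CPM after PNX. Both genes overlapped between the groups, with log2 fold changes of 0.05 for Ctnnb1 (SE 0.19) and -0.08 for Axin2 (SE 0.14). The edgeR adjusted p was 0.959 for Ctnnb1 and 0.891 for Axin2, and in 1 alternative each the sign turned, to -0.07 for Ctnnb1 without sham replicate 3 and to 0.01 for Axin2 in replicates 1 and 2 alone. The largest difference in Axin2 over the alternatives was -0.09. Tcf7l1 was at 25.4, 25.3 and 24.6 CPM in sham against 26.4, 26.8 and 26.7 CPM after PNX, which did not overlap although the log2 fold change was only 0.09 (SE 0.13, edgeR adjusted p = 0.849).

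Lef1 was the effector that differed most, at 19.4, 18.3 and 32.4 CPM in sham against 8.501, 9.82 and 18.3 CPM after PNX. The PNX library of the later deposit almost equalled the lowest sham library but stayed below it. PNX was 0.482 of sham in the earlier deposit and 0.566 in the later. The log2 fold change was -0.91 (SE 0.43, edgeR adjusted p = 0.501), and -0.94 with the block (SE 0.10, edgeR adjusted p = 0.00111), which did not reach the fold threshold. Over the alternatives it lay between -1.48 and -0.47, with adjusted p from 9.04e-10 to 0.803. Tcf7 had 37.4, 38.4 and 53.1 CPM in sham and 30.5, 31.7 and 38.1 CPM after PNX (log2 fold change -0.39, SE 0.22, edgeR adjusted p = 0.576, and 0.0244 with the block), and PNX replicate 3 overlapped sham. Lef1 and Tcf7 are also genes of T cells, and the summed level of 9 T cell markers was 95.9, 95.3 and 187.8 CPM in sham and 60.4, 63.1 and 130.0 CPM after PNX, with 7 of the 9 lower at an adjusted p under 0.05 in edgeR's blocked fit. The marker sum was 0.645 of sham in the earlier deposit and 0.692 in the later, and its part in the differences in Lef1 and Tcf7 was not tested. Lef1 (chromosome 3, 131110471 to 131224356, plus strand) shares exon sequence with Gm43352 on the opposite strand.

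**Figure D4:**
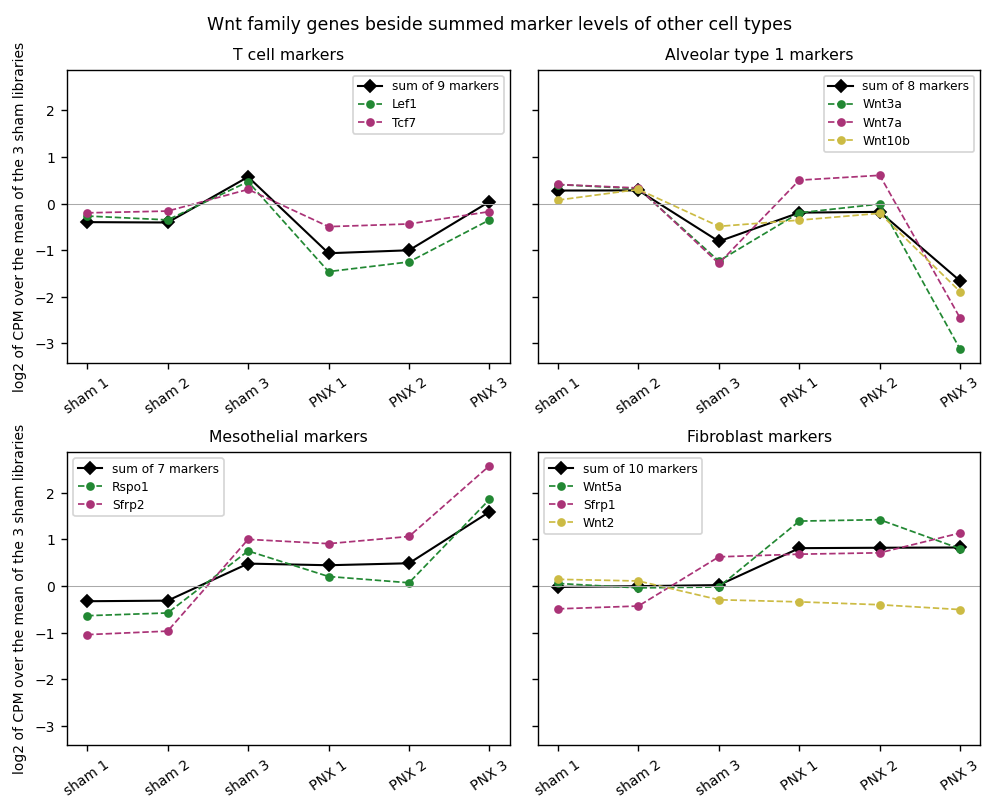
Log2 of the CPM over the mean of the 3 sham libraries, by library, for summed markers of 4 cell types (black diamonds) and for members drawn beside them (dashed lines). Lef1 and Tcf7 have higher values in replicate 3 of each group, as the T cell sum does (187.8 CPM in sham replicate 3 against 95.9 and 95.3 CPM). Wnt2 does not follow the fibroblast sum, whose 10 markers did not all go 1 way. At an adjusted p under 0.05 in edgeR's blocked fit 7 of them were higher and 1, Pdgfra, was lower, as Wnt2 was in fitted direction.

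Across the family, the fitted log2 fold change was above 0 in 23 of the 50 members tested and below 0 in 27 (46.0% higher, beside 48.0% of all genes). The median was -0.07 in the members and -0.01 over all genes, and the interquartile range was -0.35 to 0.47 in the members and -0.23 to 0.21 over all genes. In 22 of 50 members (44.0%) the 3 PNX libraries lay all on one side of the 3 sham libraries, 12 above and 10 below, where 36.5% of all genes tested did so, 18.6% above and 18.0% below. At an unadjusted p under 0.05, 9 members and 2076 of all genes (12.5%) passed edgeR without the block; limma-voom called 0 members and 0 genes, and DESeq2 called 2 members (Wnt4 and Wnt5a, both higher) and 587 genes (2.96%, or 2.51% as higher and 0.449% as lower). With the 6 libraries as replicates of their own, edgeR called 1 member (Wnt4, higher), beside 2.51% of all genes, or 2.28% as higher and 0.24% as lower. That fit counts the near-duplicate replicates 1 and 2 as separate samples. At an adjusted p under 0.05 and no fold limit, 15 members passed with the block, 9 higher and 6 lower, where 21.6% of all genes passed. This rule was chosen after the data were seen. Another scaling shifted the balance of all genes called with the block, from 645 up and 204 down under TMM to 540 up and 84 down with size factors from DESeq2, to 548 up and 98 down when scaled by the upper quartile, and to 550 up and 79 down when scaled by library size, while the same 3 members were called under each.

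Other genes of the pathway were taken from a list of 70, of which 68 were tested: ligand carriers and co-receptors, inhibitors, the destruction complex, nuclear cofactors, planar polarity genes and target genes outside the family. Without the block 0 passed both thresholds in edgeR, and with it 3 (4.41%), all higher, beside 5.12% of all genes (3.89% as higher), so the share was no larger in the pathway list. Wisp1, a target gene of β-catenin found in mesenchymal cells, had 2.48, 2.44 and 3.44 CPM in sham and 14.2, 15.9 and 10.1 CPM after PNX (log2 fold change with the block 2.16, SE 0.24, edgeR adjusted p = 0.00127). Ror2, the tyrosine kinase receptor of Wnt5a, had 1.69, 1.92 and 1.65 CPM in sham and 4.86, 5.55 and 3.75 CPM after PNX (1.39, SE 0.19, edgeR adjusted p = 0.00297). Cthrc1, a secreted protein that binds Wnt and Ror2, had 2.92, 2.99 and 2.94 CPM in sham and 5.64, 5.25 and 8.62 CPM after PNX (1.18, SE 0.20, edgeR adjusted p = 0.00655). In all 3 genes the PNX libraries lay above every sham library. The summed fibroblast markers, most of whose sham level was Npnt, were also above sham, at 1.78 and 1.75 times sham within the deposits. Their part was not tested. Without the block the edgeR adjusted p of Wisp1, Ror2 and Cthrc1 was 0.0997, 0.163 and 0.204 in that order. In the blocked fit without PNX replicate 1, 0 of the pathway genes passed.

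At an adjusted p under 0.05 in the blocked fit, 21 of the 68 pathway genes passed (30.9%, beside 21.6% of all genes), 12 higher and 9 lower. Of all genes tested, 11.5% passed as higher and 10.1% as lower. The 10 tested target genes outside the family had 5 higher and 0 lower by that rule, among them Ccnd1 (cyclin D1, log2 fold change 0.67, SE 0.10) and Myc (0.47, SE 0.08). Both are also genes of dividing cells, and the summed level of 12 cell division markers was 81.7 to 144.6 CPM in sham and 708.5 to 1071 CPM after PNX, with all 12 higher; their part was not tested. Nuclear cofactors had 0 higher and 3 lower of 11, among them Tle1, a co-repressor that binds Lef1 and the Tcf proteins (-0.58, SE 0.09). Surface proteins that act with Fzd4 or in brain vessels did not move one way, with Tspan12, the partner of Fzd4 in norrin signalling, at -0.39 (SE 0.09), Reck at -0.61 (SE 0.16) and Gpr124 at 0.46 (SE 0.09), all with the block.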

How the data were processed

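RNA of CD31-selected lung ECs was sequenced in 6 libraries. The authors prepared stranded mRNA libraries and aligned paired-end reads to mm10 (GRCm38). STAR is named in the submitters' processing notes, and counting was done on Basepair. How reads were counted, whether strand was used and which annotation release served are not stated in the sources used here. The deposited values were raw counts of 33068 RefSeq transcripts with TPM, the authors' level per kilobase of transcript scaled to a library total, and FPKM, which was not used. Counts were summed per symbol. A chi-square compared replicates 1 and 2 of a group, on single-transcript symbols of 20 counts or more, before they were summed.

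The tests used edgeR 4.0.16 (R 4.3.3) with TMM scaling, filterByExpr, glmQLFTest and Benjamini-Hochberg adjustment over all genes, on 4 samples with 2 residual degrees of freedom, and with the deposit as replicate block with 1. DESeq2 1.42.0 and limma 3.58.1 were alternatives. The standard error is the log2 fold change divided by the square root of F. The labels pair the groups by deposit; deviations of same-numbered libraries correlated at 0.637, 0.631 and 0.72 over 16598 genes. Members and lists were chosen with earlier results of these data known. Values in every library were given for Wnt5a, Axin2, Lef1, Ctnnb1 and each member whose groups did not overlap and whose mean count reached 50. Positions are from GENCODE on GRCm38 and promoters from RefSeq.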

Additional observations from a re-analysis of the deposited data

How the results depend on the processing

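Of 609 values of the 21 members named by rule, recomputed under the alternatives, 567 kept their direction and side of the thresholds, 40 newly passed and 2 changed sign (Axin2 to 0.0090 in replicates 1 and 2 alone, Ctnnb1 to -0.0718 without sham replicate 3). No pass could be lost, since 0 members passed in the fit they were set against. Ctnnb1 was at its highest, 0.1468, without PNX replicate 3. Members, other pathway genes and all genes called, 0, 0 and 0 in the 4 samples without a block, became 3, 3 and 849 with the replicate block, 1, 2 and 409 in 6 libraries, 4, 4 and 920 in 6 libraries with the block, 11, 3 and 1203 in replicates 1 and 2 alone, 2, 2 and 587 in DESeq2 and 3, 3 and 813 in DESeq2 with the block. With the block and DESeq2's size factors they were 3, 2 and 624, with upper-quartile scaling 3, 2 and 646, with library size alone 3, 2 and 629, and with the transcript of the highest total 3, 3 and 726. At an adjusted p under 0.05 with no fold limit they were 15, 21 and 3584 with the block. The last 2 settings were chosen after seeing the data. Replicates 1 and 2 alone and the fits of 6 libraries count near duplicates as separate samples, so their adjusted p may rest on technical spread. In the fit of 6 libraries with the block, the block was the replicate number and not the deposit. Leaving out 1 library at a time gave 0 to 3 members, 0 to 3 pathway genes and 0 to 863 genes (without a block at most 2, without PNX replicate 3; with the block 485, when PNX replicate 1 was left out, to 863, with 671 and 668 when sham replicate 1 or 2 was). The median of the members was -0.0013 in replicates 1 and 2 alone, -0.1471 in DESeq2 with the block and between -0.1580 and -0.0039 with a library left out (-0.1398 and -0.1341 in the blocked fits without sham replicate 2 and PNX replicate 1). The cause of these changes was not tested. The blocked fit rests on 1 residual degree of freedom, and with n = 2 samples per group a single gene had no check beyond its values in both deposits. Depth limits the members under a mean count of 50, whose fold changes carry wide errors.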
